A study of Homo sapiens with 22 samples.

Results

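NAALADL2, LRBA, NCAM2, IMMP2L, NLGN1, PPFIA2, FBXL17 and LUZP2 are 8 protein-coding genes whose loci each span over 500 kb and hold many peaks of PSF crosslinking in LNCaP prostate cancer cells. They are 8 of the 20260 gene symbols in the tables, and they were selected on their PSF-CLIP peaks, so their peak counts and densities are given below as a description. PSF (also called SFPQ) is a nuclear protein. RNA recovered with an antibody to it (PSF-RIP) and the matching input RNA were sequenced in 3 lines, and sites of ultraviolet crosslinking to it (PSF-CLIP) were mapped in LNCaP only. The groups were 22Rv1 cells with the androgen dihydrotestosterone (DHT, 10 nM, 24 h) or with ethanol vehicle, LTAD cells with DHT or vehicle, and LNCaP cells with DHT or vehicle. All had first been kept for 3 days in phenol-red-free medium with 2.5% charcoal/dextran-treated serum, and the labels name no genetic change in any line. LNCaP is an androgen-responsive line, 22Rv1 comes from a xenograft that relapsed after castration, and LTAD, whose name the labels do not spell out, was cultured in steroid-depleted serum. Each line, treatment and assay had 1 library, so 6 pairs of PSF-RIP and input were compared. Nothing in the labels says that libraries of a line came from separate cultures. With no repeat libraries, the spread behind every p-value is what the model left over between libraries, part of which may be technical. For PSF-RIP against input it includes differences between lines in that ratio. In the other comparisons it is differences between lines in the response to DHT, and the DHT and vehicle libraries served as the samples of a line. Coordinates are on hg19.

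PSF binds RNA through a pair of RNA recognition motifs, takes part in splicing and transcription, and is a core protein of paraspeckles, nuclear bodies built on the long noncoding RNA NEAT1. In mouse brain it is known to be needed for the expression of very long neuronal genes. Very long genes consist almost wholly of intron, so a nuclear protein that binds nascent transcripts meets mostly intron sequence there.

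The 8 genes have varied roles, and 3 of them encode proteins of neural adhesion or synapses. NCAM2 (chr21:22370633-22912517, plus strand) encodes a neural cell adhesion molecule, NLGN1 (chr3:173116238-174001139, plus strand) a postsynaptic adhesion protein that binds neurexins, and PPFIA2 (chr12:81651754-82153109, minus strand) liprin-alpha-2, a scaffold of presynaptic terminals. LRBA (chr4:151185811-151936649, minus strand) encodes a BEACH-domain protein of vesicle trafficking, FBXL17 (chr5:107194734-107717799, minus strand) an F-box substrate adaptor of an SCF ubiquitin ligase, and IMMP2L (chr7:110303106-111202573, minus strand) a subunit of the mitochondrial inner membrane peptidase. NAALADL2 (chr3:174577111-175523428, plus strand) belongs to the protein family of glutamate carboxypeptidase II, the prostate antigen encoded by FOLH1, and LUZP2 (chr11:24518516-25104186, plus strand) encodes a leucine zipper protein. Their loci span 501.4 kb (PPFIA2) to 946.3 kb (NAALADL2).

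For each gene, 100 bases are printed from the region that had a peak in every list and the highest summed score. They come from the centre of the part common to all 4 CLIP lists. They show sequence under the shared peaks, and which bases were crosslinked is not known, as the lists give only peak intervals without strand. The sequences are the hg19 reference on the strand of the gene, 5′ to 3′, and capitals mark runs of at least 6 purines (A or G). All 8 stretches lie in introns. They are chr3:174586983-174587082 in intron 1 of NAALADL2, chr4:151391554-151391653 in intron 43 of LRBA, chr21:22547075-22547174 in intron 1 of NCAM2, chr7:110960460-110960559 in intron 4 of IMMP2L, chr3:173681875-173681974 in intron 4 of NLGN1, chr12:81825586-81825685 in intron 5 of PPFIA2, chr5:107476708-107476807 in intron 6 of FBXL17 and chr11:24589002-24589101 in intron 1 of LUZP2, with introns counted from the start of the gene. The LRBA region from which its stretch comes also reaches into an LRBA exon.
NAALADL2: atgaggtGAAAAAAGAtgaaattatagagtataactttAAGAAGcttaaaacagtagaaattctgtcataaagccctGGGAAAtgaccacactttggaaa
LRBA: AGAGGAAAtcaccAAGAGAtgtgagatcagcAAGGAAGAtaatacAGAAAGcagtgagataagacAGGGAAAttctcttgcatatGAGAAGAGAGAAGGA
NCAM2: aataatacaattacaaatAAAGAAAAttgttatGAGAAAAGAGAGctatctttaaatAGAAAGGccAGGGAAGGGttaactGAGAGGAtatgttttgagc
IMMP2L: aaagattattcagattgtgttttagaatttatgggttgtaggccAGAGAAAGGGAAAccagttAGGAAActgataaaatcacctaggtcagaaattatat
NLGN1: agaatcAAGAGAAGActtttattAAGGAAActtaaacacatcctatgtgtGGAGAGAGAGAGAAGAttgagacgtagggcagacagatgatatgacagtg
PPFIA2: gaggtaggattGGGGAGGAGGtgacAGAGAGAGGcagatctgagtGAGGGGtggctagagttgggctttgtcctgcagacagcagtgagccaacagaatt
FBXL17: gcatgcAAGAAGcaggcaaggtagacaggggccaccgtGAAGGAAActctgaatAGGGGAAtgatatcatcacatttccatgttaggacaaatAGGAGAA
LUZP2: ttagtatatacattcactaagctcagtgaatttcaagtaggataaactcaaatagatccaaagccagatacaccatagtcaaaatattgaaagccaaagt
Purines made up 74% of the LRBA stretch, the highest of the 8, and 57% of the LUZP2 stretch, the lowest. The LRBA stretch held 6 purine runs and a run of 15 bases, and the NLGN1 stretch held the longest run, 16 bases. The LUZP2 stretch held no run of that length.

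Together the 8 loci held 1054 peaks. There were 384 in DHT list 1, 192 in DHT list 2, 432 in vehicle list 1 and 46 in vehicle list 2, which is 1.63%, 1.42%, 1.78% and 0.598% of the peaks in those lists. NAALADL2 had the most of any gene read as a single locus, with 64, 37, 70 and 6 peaks in the same order of lists. NCAM2 had 55, 32, 59 and 10, PPFIA2 53, 31, 58 and 7, LRBA 50, 26, 61 and 8, and IMMP2L 57, 18, 52 and 6. NLGN1 had 44, 23, 48 and 1, FBXL17 40, 18, 45 and 5, and LUZP2 21, 7, 39 and 3. In each gene vehicle list 2 held the fewest peaks, and it was also the shortest list, with 7691 peaks in all. The lists of a treatment also differed in median peak width, 410 and 158 bp for DHT lists 1 and 2 and 491 and 139 bp for vehicle. They are thus not taken as like repeats, and presence in several lists is a description.

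Per 100 kb of locus and list, PPFIA2 had 7.43 peaks and NCAM2 7.20, the densest of the 8. FBXL17 followed with 5.16, LRBA with 4.83, NAALADL2 with 4.68, IMMP2L with 3.70, NLGN1 with 3.28 and LUZP2 with 2.99. The other 259 genes of at least 500 kb had a median of 0.167 and reached 5.26 in MIR99AHG, a long noncoding host gene of microRNAs. The non-members with the most peaks under any symbol were SRGAP2D with 1702, SMN1 and SMN2 with 178 each and SERF1A and SERF1B with 165 each, but each of these symbols joins transcripts that lie in separate places. Among symbols with 1 group of overlapping transcripts, a restriction added after seeing the data, the next were ANK3 with 130 peaks, MIR99AHG with 118, PPP3CA with 101, PRKD1 with 100 and SMYD3 with 90. LUZP2, with 70, thus ranked 18th by number of peaks and lay below genes outside the group. No threshold separates the 8 genes from these.

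**Figure D1:**
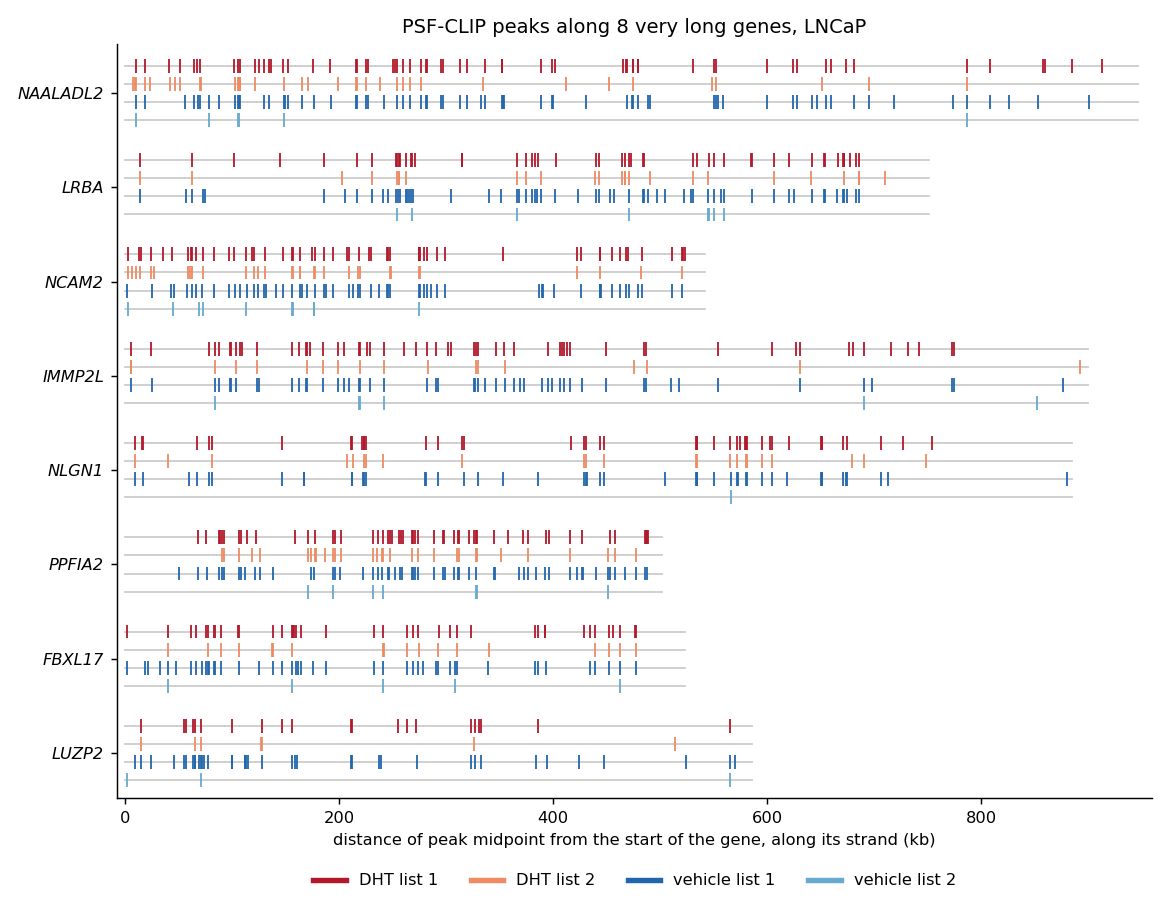
Midpoints of PSF-CLIP peaks along each of the 8 genes in LNCaP, as distance from the start of the gene along its strand (kb), with 1 track for each of the 4 lists and a grey line for the length of the locus. Peaks run along most of each locus, and vehicle list 2 has the fewest in every gene.

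Peaks that overlapped within or between lists were merged into 547 regions, which covered 8.22% of the 8 loci. Of these regions, 29 had a peak in all 4 lists, 99 in 3, 173 in 2 and 246 in 1. PPFIA2 had the largest share of regions in 2 or more lists (68.2% of 66) and LUZP2 the smallest (33.3% of 48). Of the member peaks in DHT list 2, 77.1% overlapped a peak of DHT list 1 by at least 1 bp, against 42.7% of all peaks in that list. Of those in vehicle list 2, 91.3% overlapped vehicle list 1, against 24.8% of all its peaks, although the member peaks there number only 46. Of those in DHT list 1, 78.4% overlapped vehicle list 1, against 62.3% of all its peaks. The overlaps rest on the same peaks that chose the genes and were not tested.

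The regions lay in introns almost throughout, and 21 of 547 overlapped an exon of their own gene and 8 an exon of another gene. With each locus cut into 10 equal bins from its start, the bins held 56, 70, 67, 66, 58, 61, 53, 47, 42 and 27 regions, so the last bin had the fewest. The longest intron of several genes held a large part of them. Intron 1 of NCAM2 (282.0 kb) made up 52.5% of its intron length and held 72.1% of its intron regions. Intron 4 of IMMP2L (523.7 kb) made up 58.3% of the length and held 76.7% of the regions, and intron 1 of LUZP2 (231.9 kb) 39.9% and 62.5%. In NAALADL2, intron 1 (237.3 kb) made up 25.2% and held 35.4%, and in LRBA intron 40 (97.0 kb), the longest of its many introns, made up 13.1% and held 22.7%. PPFIA2, NLGN1 and FBXL17 were closer to even, with 59.8% of length and 61.5% of regions in intron 2 of PPFIA2, 53.1% and 56.7% in intron 4 of NLGN1, and 31.9% and 28.3% in intron 6 of FBXL17. Intron reads did not always follow length either. In input, intron 1 of NCAM2 took 62.1% to 91.5% of the intron reads, and intron 4 of IMMP2L 72.4% to 86.7%. Intron 1 of NAALADL2 took 41.5% to 58.9%, and intron 1 of LUZP2 35.6% to 63.7%. These lay above the shares of length, except at the lower end for LUZP2. Intron 6 of FBXL17 took 21.7% to 43.2%. Whether regions followed reads or length was not tested. In NLGN1, intron 4 took 65.9% to 68.5% of the intron reads of the PSF-RIP libraries and 61.8% to 73.6% of those of the input libraries, above its share of length. In LRBA, intron 40 took 4.12% to 13.4% of PSF-RIP and 4.44% to 8.98% of input intron reads, mostly below its share of length. In PPFIA2, intron 2 took 23.1% to 51.9% in PSF-RIP and 37.5% to 76.9% in input. The 22Rv1 inputs held only 8 PPFIA2 intron reads with DHT and 26 with vehicle, so this input range rests in part on few reads.

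The regions shared a base composition that the selection did not use. Purines on the gene strand made up 55.6% of the bases of the regions and 48.6% of the rest of the loci, and 515 of the 547 regions lay above the rest of their own locus. The share in regions was highest in NLGN1 (60.7%, against 48.7% in the rest of the locus) and lowest in PPFIA2 (52.7%, against 49.0%). It was nearly the same in regions of 1 list (55.2%) and of 4 lists (55.3%). Other genes of at least 500 kb with 10 or more regions had a median of 60.4% in their regions, against 49.1% over their loci, and 63 of 65 of them had more purines in regions than in the locus. The purine share is therefore no property of the 8 genes alone.

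The purine motifs AGGAAG and GAGAAG, chosen after the printed sequences had been read, were searched on both strands in windows of 200 bases around the region centres. The motif AGGAAG was present on the gene strand in 21.0% of the 547 windows and in 27.3% of the 128 windows of regions in 3 or 4 lists, against 7.53% of 28164 windows tiled over the 8 loci. On the opposite strand it was present in 3.66% of region windows, against 8.16% of tiles. The motif GAGAAG was present on the gene strand in 17.9% of region windows, against 6.48% of tiles, and on the opposite strand in 4.02%, against 6.83%. These 2 motifs can overlap each other by up to 2 bases. A match is only a run of letters and was not tested as a binding site.

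**Figure D2:**
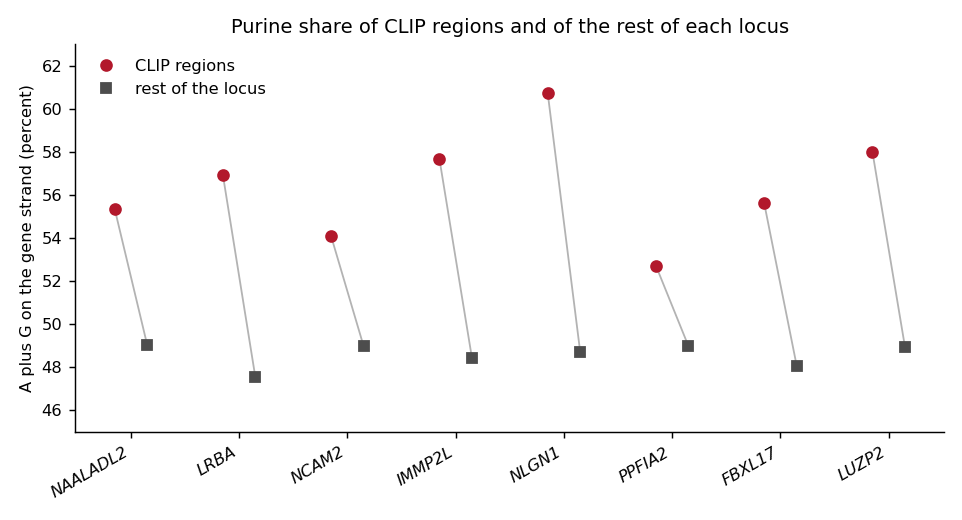
Share of A plus G on the gene strand (percent, axis from 45 to 63) in the CLIP regions (circles) and in the rest of the locus (squares) of each of the 8 genes. The circle lies above the square in all 8 genes, by the most in NLGN1 (60.7% against 48.7%) and by the least in PPFIA2 (52.7% against 49.0%).

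PPFIA2 carries a second transcript in the opposite direction. The locus has the long noncoding RNA gene ENSG00000258162 on the plus strand (chr12:81771821-81950416). Reads on the strand opposite to PPFIA2 numbered 3111 in the DHT and 4519 in the vehicle PSF-RIP library of LNCaP, against 418 in the DHT and 572 in the vehicle input. No PSF-RIP library of the other lines held more than 53 such reads and no input of theirs more than 10. Of the LNCaP reads, 3018 with DHT and 4205 with vehicle in PSF-RIP lay between the positions 81763193 and 81906170, most of which is inside that gene. The peak lists carry no strand. The 29 of 66 PPFIA2 regions inside the span of this gene, one of which gave the printed PPFIA2 sequence, can therefore not be assigned to either transcript. Purines on the PPFIA2 strand made up 52.3% of those 29 regions and 53.1% of the 37 elsewhere. Without PPFIA2 the purine share of the regions was 56.3%.

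The sequenced RNA shows how much of each transcript was present. In the libraries as a whole, PSF-RIP held 4641602 to 10439461 mapped reads and input 1073228 to 3014049, and intron reads made up 16.6% to 26.1% of the gene reads of PSF-RIP and 16.7% to 23.2% of those of input. KLK3, the androgen target that encodes prostate-specific antigen, had 1020 CPM (exon read counts scaled to library size) with DHT and 139 with vehicle in LNCaP input, 11.1 and 2.64 in LTAD, and 37.9 and 39.5 in 22Rv1. EPCAM, an epithelial marker, had 44.6 to 133 CPM in the 6 inputs. The mRNA of SFPQ itself was 1.01 ± 0.08 (log2, SE) above input in PSF-RIP over the 6 pairs (adjusted p = 1.63e-09).

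Intron levels are given as CPM of scaled intron reads per kb of intron, which allows comparison between genes. In LNCaP input, PPFIA2 had 5.30 with DHT and 6.10 with vehicle and NCAM2 5.69 and 5.14, and these overlap. FBXL17 had 4.80 and 4.82, just below both. LRBA followed at 1.86 and 1.90. LUZP2 had 1.41 and 1.67 and NAALADL2 1.47 and 1.23, again with overlap. NLGN1 had 1.10 and 0.813, and IMMP2L was the lowest with 0.742 and 0.645. The 8 genes thus ran from 0.645 to 6.10 CPM per kb in the line in which the peaks were mapped.

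Among the 701 genes of at least 300 kb, the 8 ranked 7th (PPFIA2) to 48th (IMMP2L) by this level. Their median was 1.71 CPM per kb, against 0.0463 for the others. Peak density and LNCaP input intron level ran together over these 701 genes, with a Spearman rho of 0.713, and of 0.703 without the 8. The points share the same line but not the same libraries, and the value is a description.

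**Figure D3:**
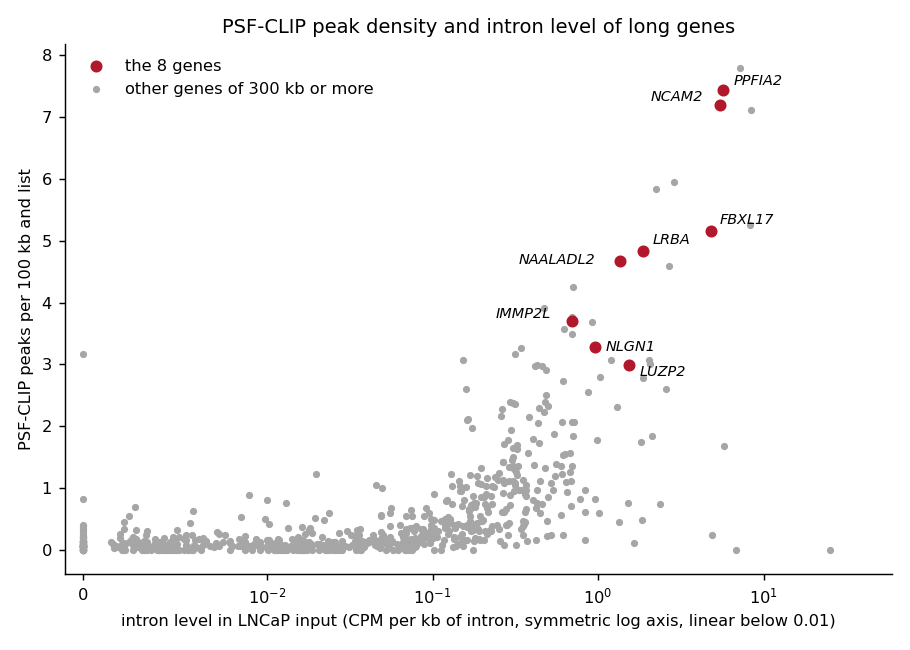
PSF-CLIP peaks per 100 kb and list against intron level in LNCaP input (CPM per kb, symmetric log axis, linear below 0.01) for the 701 genes of at least 300 kb, with the 8 genes in red and named. The 8 genes lie at the upper right, from 2.99 peaks per 100 kb for LUZP2 to 7.43 for PPFIA2, and a few other long genes lie among them.

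The lines differed widely in these genes. Relative to LNCaP, introns of 6 of the 8 genes were lower in 22Rv1 input and introns of 4 were lower in LTAD input, and none was higher past the threshold (adjusted p of 0.05 over all genes). Over all 12185 genes tested, 32.9% were called between 22Rv1 and LNCaP, 15.7% as lower, and 2.13% were called between LTAD and LNCaP, 0.977% as lower. Because the genes were selected on LNCaP peaks, and peak density went with LNCaP level, this comparison is not independent of how the genes were chosen. Bulk libraries cannot tell fewer expressing cells from less RNA per cell.

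In 22Rv1, PPFIA2 differed from LNCaP the most of the 8. Its introns had 0.0405 CPM per kb with DHT and 0.108 with vehicle in 22Rv1 input, 1.54 and 2.69 in LTAD, and 5.30 and 6.10 in LNCaP. No values of these lines overlap, but those of 22Rv1 input rest on only 8 intron reads with DHT and 26 with vehicle. The log2 difference from LNCaP was -6.29 ± 0.34 in 22Rv1 (SE, adjusted p = 1.33e-10) and -1.49 ± 0.26 in LTAD (adjusted p = 0.00272), in both treatments.

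FBXL17 introns had 0.290 and 0.350 CPM per kb with DHT and vehicle in 22Rv1, 1.54 and 1.68 in LTAD, and 4.80 and 4.82 in LNCaP. They were lower by -3.91 ± 0.23 in 22Rv1 (adjusted p = 2.93e-10) and by -1.58 ± 0.20 in LTAD (adjusted p = 9.22e-05) on the log2 scale. FBXL17 and PPFIA2 thus had the same order of lines. NCAM2 had 0.448 and 0.648 in 22Rv1, 0.407 and 0.729 in LTAD, and 5.69 and 5.14 in LNCaP, so both other lines were low and overlapped each other. Its log2 difference from LNCaP was -3.34 ± 0.32 in 22Rv1 (adjusted p = 2.24e-07) and -3.31 ± 0.34 in LTAD (adjusted p = 3.54e-06). LRBA was likewise low in both, with 0.362 and 0.464 in 22Rv1, 0.295 and 0.377 in LTAD, and 1.86 and 1.90 in LNCaP.

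LRBA differed from LNCaP by -2.19 ± 0.24 in 22Rv1 (adjusted p = 9.39e-07) and -2.50 ± 0.26 in LTAD (adjusted p = 4.53e-06). NAALADL2 and LUZP2 were lower in 22Rv1, by -2.87 ± 0.32 (adjusted p = 1.25e-06) and -1.69 ± 0.27 (adjusted p = 9.79e-05). In LTAD, NAALADL2 had 0.582 and 0.772 CPM per kb, against 1.47 and 1.23 in LNCaP, and did not pass the threshold (-1.03, adjusted p = 0.0771), but did with no expression filter (-1.05, adjusted p = 6.47e-05). LUZP2 in LTAD (1.43 and 2.09) overlapped LNCaP (1.41 and 1.67). NLGN1 and IMMP2L were near level across the lines. NLGN1 had 0.832 and 1.12 in 22Rv1, 0.913 and 1.07 in LTAD, and 1.10 and 0.813 in LNCaP, and IMMP2L stayed between 0.538 and 0.742 in all 6 inputs.

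The order of the genes changed with the line. NLGN1, the seventh in LNCaP, was the highest in 22Rv1. PPFIA2 was the lowest in 22Rv1, while its values overlapped those of NCAM2 at the top in LNCaP and those of LUZP2 and FBXL17 at the top in LTAD. Other genes of at least 500 kb did not share the lower level in 22Rv1: 85 of 197 were higher, 18 were lower and the median log2 difference was 0.82, against -2.53 for the 8 and 0.01 for all genes. In LTAD, 8 of those 197 were higher and 3 lower, with a median of -0.01, against -1.26 for the 8.

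The paralogues and partners of the 8 gene products also differed by line in both directions. Of 40 tested, 11 (27.5%) were higher and 7 (17.5%) lower in 22Rv1, against 17.2% and 15.7% of all genes. FOLH1 was lower by -1.80 ± 0.21 (log2, adjusted p = 2.68e-06), PTPRS, a receptor phosphatase of the family that binds liprins, by -1.69 ± 0.22 (adjusted p = 7.5e-06), and the neuroligin gene NLGN4X by -5.25 ± 0.85 (adjusted p = 9.79e-05). In LTAD 1 was higher, the neurexin gene NRXN2 (3.84 ± 0.67, adjusted p = 0.0032), and 1 was lower, FOLH1 (-1.46 ± 0.22, adjusted p = 0.000543).

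**Figure D4:**
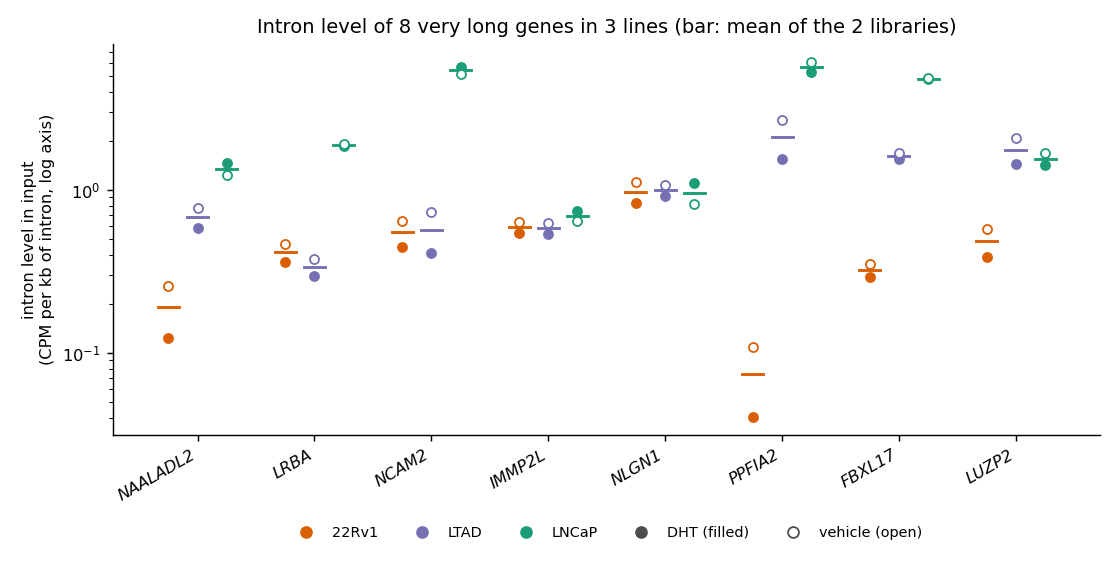
Intron level of each gene in input (CPM per kb of intron, log axis) in 22Rv1, LTAD and LNCaP, with a filled point for DHT, an open point for vehicle and a bar for the mean of the 2 libraries. PPFIA2 spans 0.0405 in 22Rv1 with DHT (8 intron reads) to 6.10 in LNCaP with vehicle, while NLGN1 and IMMP2L lie at like levels in the 3 lines.

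Intron levels over all 12 libraries tied the genes into groups. PPFIA2 and FBXL17 had a Pearson r of 0.964 (log2 CPM of intron reads), LRBA and NCAM2 0.971 and IMMP2L and NLGN1 0.95, while IMMP2L and PPFIA2 had -0.411. Among 499 other genes of at least 300 kb, the one most like PPFIA2 was PRKD1 (r = 0.993), a protein kinase gene, which was also the most like FBXL17 (0.960) and NAALADL2 (0.952). TRDN was most like NCAM2 (0.850) and LRBA (0.827), JAZF1 most like IMMP2L (0.959), SMYD3 most like NLGN1 (0.945) and CACNB2 most like LUZP2 (0.919). The 12 points share lines and treatments, so each r is a description.

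PSF-RIP against input asks whether the RNA of these genes was recovered with PSF beyond its level in the cell. For intron reads, none of the 8 genes passed the threshold, where 22.8% of the 11751 genes tested did. The log2 differences ran from -0.09 ± 0.18 for FBXL17 (adjusted p = 0.747) to 0.36 ± 0.19 for NAALADL2 (adjusted p = 0.194). LRBA was at -0.01 ± 0.18, NCAM2 at 0.07 ± 0.23, LUZP2 at 0.16 ± 0.20, PPFIA2 at 0.18 ± 0.18, and IMMP2L and NLGN1 at 0.21 ± 0.23 and 0.21 ± 0.24. None of the 8 had an unadjusted p under 0.05 in edgeR, where 4134 of all 11751 genes did, and DESeq2 called none of the 8. PPFIA2 passed without the intron with the most reads (0.71, adjusted p = 0.0205), and NAALADL2 with no expression filter (0.40, adjusted p = 0.0135). The median was 0.17 for the 8, 0.28 for the other genes of at least 500 kb (27 higher and 10 lower of 185 tested) and 0.06 for all genes.

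Behind these averages the lines went different ways. In both 22Rv1 pairs all 8 genes had more intron signal in PSF-RIP than in input, with median log2 ratios of 0.73 with DHT and 0.82 with vehicle. The PPFIA2 ratios in 22Rv1 rest on only 8 input intron reads with DHT and 26 with vehicle. In LTAD 7 of 8 genes were above 0 with DHT (median 0.26, the exception being NCAM2 at -0.14) and 8 of 8 with vehicle (median 0.23). In both LNCaP pairs all 8 were below 0, with medians of -0.37 with DHT and -0.98 with vehicle. NLGN1, for example, had 1.55 CPM per kb with DHT and 2.25 with vehicle in 22Rv1 PSF-RIP, against 0.832 and 1.12 in input. In LNCaP it had 0.856 and 0.302 in PSF-RIP, against 1.10 and 0.813 in input. The PSF-RIP values were all above the input values in 22Rv1, and each LNCaP PSF-RIP library was below its own input.

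The difference between lines was tested as an interaction, which was added after seeing the data. For 22Rv1 against LNCaP, 2 of the 8 genes passed the threshold, where 0.181% of all genes did and 0.14% did as higher. IMMP2L had 0.986 and 1.51 CPM per kb with DHT and vehicle in 22Rv1 PSF-RIP, against 0.544 and 0.631 in input, and 0.517 and 0.266 in LNCaP PSF-RIP, against 0.742 and 0.645 in input. Its log2 difference between the line ratios was 1.97 ± 0.37 (adjusted p = 0.0468). FBXL17 had 0.430 and 0.531 in 22Rv1 PSF-RIP, against 0.290 and 0.350 in input, and 3.01 and 2.19 in LNCaP PSF-RIP, against 4.80 and 4.82 in input. The difference between its line ratios was 1.50 ± 0.29 (adjusted p = 0.0468). Both calls sit at the threshold and both were lost without the intron with the most reads (1.78 with adjusted p = 0.0504 for IMMP2L, 1.06 with adjusted p = 0.231 for FBXL17), and that of FBXL17 also without TMM scaling (1.38, adjusted p = 0.0526).

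The other 6 genes had differences of 0.87 (PPFIA2) to 1.77 (NLGN1) with adjusted p of 0.0713 to 0.413. For LTAD against LNCaP, none of the 8 passed, where 0.00821% of all genes did. Their differences were 0.76 to 1.18, all in the same direction. In edgeR 7 of the 8 had an unadjusted p under 0.05, as did 705 of all 12185 genes and 37 of 197 other genes of at least 500 kb. With no expression filter, 7 of the 8 passed for 22Rv1 (262 genes called in all) and 3 for LTAD (19 in all). The pattern was not particular to the 8 genes. Of the other 185 genes of at least 500 kb, 78.4% with DHT and 83.8% with vehicle were above 0 in 22Rv1, 66.5% and 64.9% in LTAD, and 29.2% and 18.4% in LNCaP. Their median interaction was 1.15 for 22Rv1 against LNCaP, next to 1.51 for the 8 and 0.04 for all genes.

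The average over lines moved with the line left out. Without 22Rv1 none of the 8 genes passed, and NCAM2 (-0.38), IMMP2L (-0.30), LUZP2 (-0.23) and NLGN1 (-0.22) had the opposite sign. Without LNCaP, where 18.8% of all genes were called and 10.6% as higher, 6 of the 8 genes passed as higher in PSF-RIP introns: IMMP2L (0.75, adjusted p = 0.00151), NAALADL2 (0.74, adjusted p = 0.00089), NLGN1 (0.68, adjusted p = 0.00103), NCAM2 (0.55, adjusted p = 0.0223), LUZP2 (0.54, adjusted p = 0.0188) and PPFIA2 (0.52, adjusted p = 0.0178). LRBA and FBXL17 had 0.39 (adjusted p = 0.0647) and 0.36 (adjusted p = 0.075). LNCaP, in which the crosslinking peaks were mapped, was thus the line in which the introns of these genes lay below input in PSF-RIP. There, the 73 introns with a CLIP region had a median of 1.04 CPM per kb in PSF-RIP and 1.64 in input, and the 71 without a region, which were shorter (median 3.19 kb, against 31.4 kb for those with one), had 1.50 in PSF-RIP and 2.16 in input. Both kinds of intron were lower in PSF-RIP. LRBA, with 55 introns listed, gave more of the introns without a region than any other gene, and many of these held few reads. Introns of a gene are not separate samples, so these medians are a description.

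**Figure D5:**
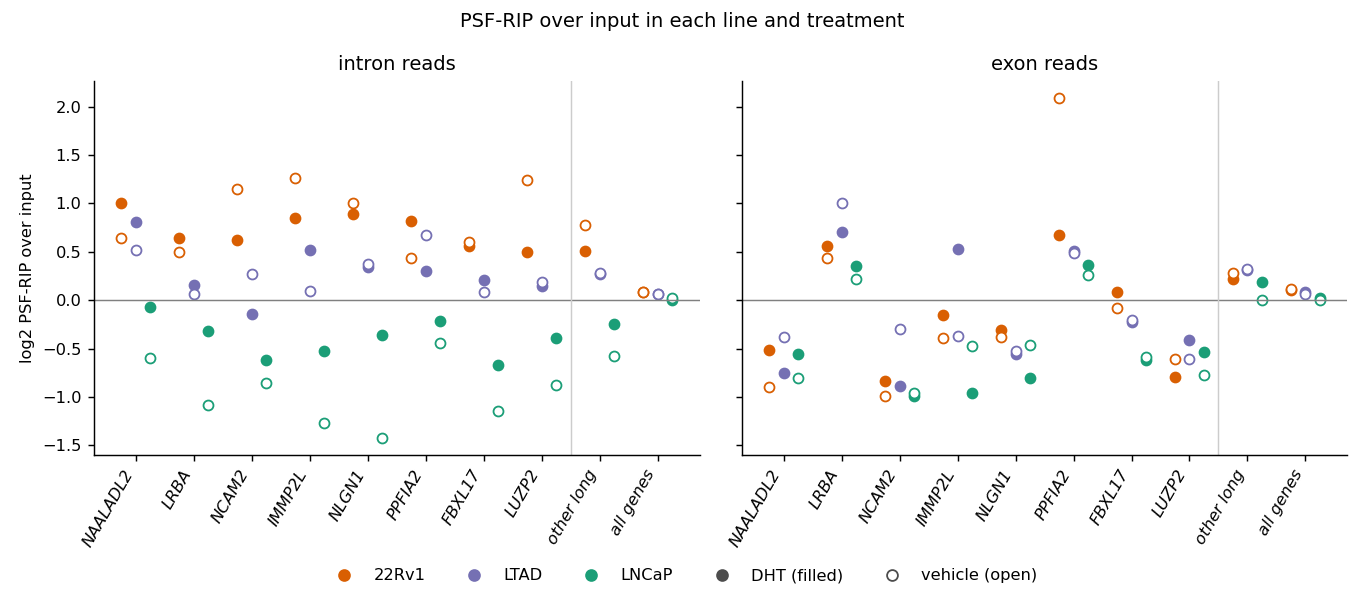
Log2 ratio of PSF-RIP over input for intron reads (left) and exon reads (right) of each gene, in 22Rv1, LTAD and LNCaP, with filled points for DHT and open points for vehicle, beside the medians of the other genes of at least 500 kb and of all genes tested. In introns all 22Rv1 points lie above 0 and all LNCaP points below 0 for the 8 genes, and in exons NAALADL2, NCAM2, NLGN1 and LUZP2 lie below 0 in all 6 pairs.

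Exon reads, which come from 1 transcript per gene, behaved differently. In PSF-RIP, 2 of the 8 genes were higher and 5 were lower than in input, where 58.7% of the 13297 genes tested were called, 31.9% as higher and 26.8% as lower. The median log2 difference was -0.42 for the 8, 0.27 for the other genes of at least 500 kb (48 higher and 14 lower of 143 tested) and 0.08 for all genes.

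NCAM2 fell the most. Its exons had 12.4 and 22.8 CPM per kb with DHT and vehicle in 22Rv1 PSF-RIP, 1.43 and 4.27 in LTAD and 34.0 and 54.7 in LNCaP, against 22.2 and 45.5, 2.74 and 5.28, and 67.5 and 106 in the inputs of the same lines. The log2 difference was -0.89 ± 0.11 (adjusted p = 9.55e-07), lower in 6 of 6 pairs. NAALADL2 had 3.73 and 4.80 in 22Rv1 PSF-RIP, 7.22 and 9.07 in LTAD and 13.7 and 17.5 in LNCaP, against 5.34 and 9.09, 12.2 and 11.8, and 20.2 and 30.4 in input. It fell by 0.68 ± 0.11 (adjusted p = 1.51e-05), lower in 6 of 6 pairs. LUZP2 was lower by -0.63 ± 0.10 (adjusted p = 1.94e-05) and NLGN1 by -0.50 ± 0.10 (adjusted p = 0.000252), each in 6 of 6 pairs.

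FBXL17 was lower by -0.33 ± 0.10 in 5 of 6 pairs (adjusted p = 0.00948), with both LNCaP pairs near -0.60 (-0.62 and -0.59) and the 22Rv1 pairs at 0.08 and -0.08. Without LNCaP it was at -0.18 and no longer called (adjusted p = 0.226). IMMP2L, whose exons drew few reads (6 to 18 in the inputs), was at -0.34 ± 0.21 (adjusted p = 0.186).

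LRBA and PPFIA2 were the genes with higher exon signal. LRBA had 20.2 and 21.7 CPM per kb with DHT and vehicle in 22Rv1 PSF-RIP, 19.0 and 26.2 in LTAD and 90.1 and 97.3 in LNCaP, against 13.6 and 15.9, 11.6 and 13.1, and 70.6 and 83.4 in input. It rose by 0.53 ± 0.10 on the log2 scale (adjusted p = 9.99e-05), higher in 6 of 6 pairs. PPFIA2 had 26.8 and 50.4 in LTAD PSF-RIP and 61.3 and 81.8 in LNCaP, against 18.8 and 35.8, and 47.6 and 68.3 in input. In 22Rv1 it had 12 and 55 exon reads in PSF-RIP and 2 in each input. The log2 difference was 0.47 ± 0.13 (adjusted p = 0.00428), higher in 6 of 6 pairs, and 0.41 without LTAD (adjusted p = 0.0537).

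The share of a gene's sense reads that fell in introns follows from both. In 6 of 6 pairs PSF-RIP had the higher share for NAALADL2 (73.6% to 84.4% in PSF-RIP, against 56.1% to 78.4% in input) and NCAM2 (62.8% to 84.0%, against 32.4% to 75.9%). It was higher in 5 of 6 pairs for NLGN1, FBXL17 and LUZP2 and in 4 of 6 for IMMP2L. It was higher in only 2 of 6 pairs for LRBA (17.8% to 43.3%, against 26.0% to 40.6%) and 1 of 6 for PPFIA2 (54.5% to 79.7%, against 57.5% to 92.9%). For PPFIA2 the 22Rv1 input shares, with the 92.9% among them, rest on few reads: 8 intron and 2 exon reads with DHT, 26 and 2 with vehicle. The shares of the 8 genes were not tested.

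Of 40 paralogues and partners, 5 (12.5%) were higher in PSF-RIP introns, near the 12.1% of all genes, and none was lower. Among them were the F-box genes FBXL5 (1.26 ± 0.20, adjusted p = 7.97e-05), FBXL6 (1.26 ± 0.32, adjusted p = 0.00589) and FBXL12 (0.63 ± 0.21, adjusted p = 0.0329), and NBEAL2, a BEACH-domain relative of LRBA (0.81 ± 0.22, adjusted p = 0.00962). Among exon reads, 20 (50.0%) were higher and 7 (17.5%) lower, against 31.9% and 26.8% of all genes. NBEAL2 (1.22 ± 0.12, adjusted p = 2.46e-08), FBXL19 (1.36 ± 0.12, adjusted p = 9.58e-09) and the neuroligin gene NLGN2 (0.98 ± 0.10, adjusted p = 7.35e-08) were higher. RBX1, the RING subunit of SCF ligases, was lower (-1.38 ± 0.15, adjusted p = 8.09e-08). All 8 of these values had the same sign in 6 of 6 pairs.

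With DHT none of the 8 genes passed the threshold in introns. In input, where 0.279% of genes were called, PPFIA2 was at -0.59 ± 0.23 (unadjusted p = 0.0194, adjusted p = 0.586 in edgeR) and LUZP2 at -0.44 ± 0.22 (adjusted p = 0.752), both lower with DHT in 3 of 3 lines. For PPFIA2 the 22Rv1 inputs held only 8 intron reads with DHT and 26 with vehicle. The other 6 genes lay between -0.33 and -0.07. With DHT all 8 genes were lower in 22Rv1 input and in LTAD input, with medians of -0.48 and -0.38, and 4 of 8 were lower in LNCaP input. The other long genes had medians of -0.12, 0.00 and 0.10 in the same lines.

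In PSF-RIP, where 1.31% of genes were called, PPFIA2 was at -0.68 ± 0.21 (adjusted p = 0.148), NCAM2 at -0.63 ± 0.24 (adjusted p = 0.277) and LUZP2 at -0.55 ± 0.21 (adjusted p = 0.277). All 3 had an unadjusted p under 0.05 in edgeR, as did 1283 of all 12185 genes and 47 of 197 other genes of at least 500 kb. Each of the 3 was lower in 2 of 3 lines. The third line was LNCaP, where all 8 genes were higher with DHT (0.03 to 1.50, median 0.59), while all 8 were lower in 22Rv1 (-1.31 to -0.22, median -0.65) and 7 of 8 in LTAD (median -0.25). NCAM2 had 0.690 CPM per kb with DHT and 1.45 with vehicle in 22Rv1 PSF-RIP, 0.369 and 0.881 in LTAD, and 3.69 and 2.83 in LNCaP. Without LNCaP, where 1.24% of all genes were called and 0.366% as lower, NCAM2 (-1.15, adjusted p = 0.00296), PPFIA2 (-1.09, adjusted p = 0.00829) and LUZP2 (-0.94, adjusted p = 0.0256) passed. With all lines, NCAM2 also passed without the intron with the most reads (-0.85, adjusted p = 0.0265), and NCAM2 (-0.59, adjusted p = 0.0106) and PPFIA2 (-0.63, adjusted p = 0.00479) passed with no expression filter. Other long genes also had a higher median in LNCaP (0.42) than in LTAD (0.00) and 22Rv1 (-0.43), and each line has 1 library per treatment, so the difference between lines was not tested. Of 40 paralogues and partners, FOLH1 alone was called, lower with DHT in PSF-RIP by -0.80 ± 0.16 (adjusted p = 0.0101) in 3 of 3 lines. None was called in input, where 2 had an unadjusted p under 0.05 in edgeR, as did 818 of all 12185 genes.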

How the data were processed

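Per the file headers, the RIP and input tables give raw read counts (unique alignments to hg19) for RefSeq transcripts, their introns and the opposite strand, as whole numbers that the authors did not normalize. Features with no read are not listed and were set to 0. The submitters' processing notes name TopHat2 2.1.0, Bowtie2 2.2.6 and Bowtie without a role, and libraries were made with a strand-specific kit, per the labels. In the 4 CLIP lists the authors deposited a score beside the position of every peak, with no strand. Their peak caller is not given in the sources used here. A second LNCaP set of 4 libraries, whose labels contradict each other (12 columns), was not used here, and 2 CLIP input libraries were not analysed here.

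Sense intron reads were summed per gene over the transcript with the most intron reads, and exon reads were taken from 1 transcript. The quasi-likelihood test of edgeR 4.0.16 (with limma 3.58.1 in R 4.3.3) was run on the counts after TMM scaling and filterByExpr, and p was adjusted over all genes by Benjamini-Hochberg with a threshold of 0.05. PSF-RIP against input used additive line and treatment terms, and in the other comparisons both terms were crossed with assay. Errors are SE of the log2 fold change, and values by pair are log2 CPM differences with a prior count of 2. On simulated counts, the share of genes changed by 1 on the log2 scale that was called was noted. It was 74.0% for PSF-RIP against input in introns and 92.1% in exons. For DHT it was 83.8% in PSF-RIP and 32.6% in input. Against LNCaP in input it was 21.9% for 22Rv1 and 15.0% for LTAD. For the interactions of 22Rv1 and LTAD it was 5.56% and 3.12%. A miss in the comparisons with low shares thus says little. The intron ratios of PSF-RIP over input of the members differed in sign between 22Rv1 and LNCaP. Whether the higher shares hold for genes that differ so between lines was not tested. A miss in those comparisons is therefore not taken as absence of a change. Loci run from the lowest start to the highest end of a symbol's transcripts, and a peak belongs to the locus that holds its midpoint. Introns and their numbers come from the RefSeq transcripts. The exons set against CLIP regions and the neighbouring genes were read from GENCODE, and bases from GRCh37.

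DESeq2 1.42.0, other scalings, filters, transcripts and left-out lines or lists were tried as alternatives. Over genes, DHT minus vehicle in input and in PSF-RIP of the same line were correlated (r of 0.25 to 0.30 for the 3 lines). A DHT response present in both assays would also give such an r, so it is no test of the pairing, which comes from the labels. Named besides the 8 genes were the 5 non-members with the most peaks, the gene most like each member, and at most 4 called paralogues or partners with the smallest p per comparison. Some genes under this rule are not reported here. The members and lists were chosen with earlier results of these data known.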

Additional observations from a re-analysis of the deposited data

Results flagged for a closer look

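Several values stood apart. The exon ratio of PSF-RIP over input of NCAM2 was -0.30 (log2) in LTAD with vehicle, while the other 5 pairs lay between -0.99 and -0.83, and its gap to them was 0.767 of the range. The exon ratio of PPFIA2 was 2.09 in 22Rv1 with vehicle, where it rests on 55 reads in PSF-RIP and 2 in input, and the other pairs lay between 0.26 and 0.67 (gap of 0.773 of the range). Chance marks about 1 in 20 groups in this way.

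The PSF-RIP over input ratio of introns differed between 22Rv1 and LNCaP by 1.97 for IMMP2L and by 1.50 for FBXL17 on the log2 scale (adjusted p = 0.0468 for each), a comparison added after seeing the data.

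Reads on the strand opposite to PPFIA2 reached 868 CPM in the DHT and 1050 CPM in the vehicle PSF-RIP library of LNCaP, against 374 CPM in the DHT and 518 CPM in the vehicle input.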

How the results depend on the processing

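Of the member values under alternatives, 428 kept their direction and side of the threshold, 24 passed it only under the alternative, 5 lost it and 23 changed sign. Counts of called genes moved by more than 1.5 times as follows. Without the intron with the most reads, 1442 genes were called for PSF-RIP introns, 2354 for 22Rv1 against LNCaP, 95 for LTAD against LNCaP, 5 for the 22Rv1 interaction and 0 for that of LTAD. With no expression filter, 123 were called for DHT in input, 363 for DHT in PSF-RIP, 464 for LTAD, 262 for the 22Rv1 interaction and 19 for that of LTAD. DESeq2 called 69 for DHT in PSF-RIP. The transcript with the most exon reads gave 168 for LTAD and 96 for the 22Rv1 interaction, the transcript with the longest span 56 for that interaction, and no TMM factor 12. Leaving out each line in turn gave 1475 to 2317 intron calls and 6368 to 7288 exon calls for PSF-RIP, 20 to 32 for DHT in input and 90 to 152 for DHT in PSF-RIP, the lowest without LTAD, 22Rv1, LNCaP and LTAD in that order. The upper scoring part of each CLIP list held 560 member peaks, and leaving out each list in turn gave 622 to 1008.

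Sign changes were as follows, and no value that changed sign was called in either fit. The ranges also hold values of unchanged sign. Of these, the upper ends for NCAM2, IMMP2L, NLGN1 and LUZP2 in PSF-RIP introns, from the fit without LNCaP, were called. For PSF-RIP introns LRBA was at 0.02 with no TMM factor and with no filter and at 0.09 without the intron with the most reads, where FBXL17 was at 0.32. Leaving out each line gave ranges of -0.35 to 0.39 for LRBA, -0.38 to 0.55 for NCAM2, -0.30 to 0.75 for IMMP2L, -0.22 to 0.68 for NLGN1, -0.41 to 0.36 for FBXL17 and -0.23 to 0.54 for LUZP2, in DHT input of -0.20 to 0.02 for IMMP2L and -0.33 to 0.12 for NLGN1, and for DHT in PSF-RIP of -0.23 to 0.27 for LRBA, -0.20 to 0.57 for IMMP2L, -0.39 to 0.60 for NLGN1 and -0.14 to 0.23 for FBXL17. Without the intron with the most reads, FBXL17 with DHT in input was at 0.03, IMMP2L in 22Rv1 at 0.11, NLGN1 at -0.34 in 22Rv1 and -0.01 in LTAD, and LUZP2 in LTAD at -0.01. NLGN1 in 22Rv1 was at -0.04 with the longest span and -0.01 with the transcript of most exon reads. The causes were not tested.

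With the replicate block, pairing PSF-RIP and input of the same line and treatment, 2867 intron and 8519 exon calls were made and no member call changed. The comparisons of lines without one treatment were not run, since no residual degrees of freedom were left, and CLIP regions could not be split by strand, which the lists do not hold.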
